A study of Danio rerio with 16 samples.

Results

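The zebrafish genome carries long terminal repeat (LTR) retrotransposons of several superfamilies. Described here are 85 families that are not named as Gypsy elements, endogenous retroviruses (ERV) or BHIKHARI. They were taken from the names of the rows of the deposited count table: the row had to be of class LTR, to hold none of BHIKHARI, Gypsy or ERV in its family or superfamily, and to reach 10 counts in at least 2 of the 16 libraries. The names alone gave 121 families, of which 85 reached the minimum, out of 509 LTR families, 1036 repeat families and 33556 genes and families in all. By superfamily they were 46 of 76 Pao families, 20 of 21 Ngaro, 8 of 9 DIRS, 4 of 8 Copia and all 7 with no superfamily beyond LTR. BHIKHARI rows also have no superfamily beyond LTR, so the names do not tell what kind of element these 7 are. Of the 36 families left out, 20 were LTR parts of Pao elements. BEL5-LTR_DR and BEL8-LTR_DR, with 60 counts each over all libraries, fell just outside the minimum, and CATCH1LTR_DR, with 78 counts, just inside.

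The libraries came from whole wild-type (WT) embryos of Danio rerio, and time is given in hours post fertilization (hpf). At 0 hpf each embryo had been injected with an LNA (locked nucleic acid), a modified antisense oligonucleotide that binds RNA tightly. The LNA was either scrambled in sequence (control) or the Bik-1 LNA, directed at the endogenous retrovirus BHIKHARI (knockdown). Embryos were collected at 8, 11, 14 and 18 hpf, from gastrulation into somite formation, and each of the 8 groups had 2 replicates of polyadenylated RNA. Every embryo had received an LNA, and since no label ties a replicate to a clutch or an injection, p-values cover only the spread among these libraries, which could be technical.

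An LTR retrotransposon is copied through its own RNA, which starts in the upstream LTR, runs through the internal coding part and ends in the downstream LTR. Pao elements (also called BEL) and Copia elements encode an integrase that inserts the new DNA copy, and they differ from each other in the order of their enzymes. DIRS and Ngaro elements carry a tyrosine recombinase in its place, and their terminal repeats are split or inverted. In the table the internal part of an element has a row of its own, marked I or int, beside a row for its LTR, and 28 of the 46 Pao rows were internal parts. The 20 Ngaro rows included 19 whose family name begins with DIRS, so the superfamily is used here as the table gives it. No consensus sequence came with the counts, and none is shown.

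Library totals ran from 4399855 to 7694887 counts, and the 85 families held 0.172% to 0.22% of a library and 1.77% to 3.1% of its repeat counts. In replicate 1 of the 8 hpf controls, ERV1-N3 families, which are not among the 85, took 5.55% of all counts, against 2.48% in replicate 2. The corresponding shares in the 8 hpf knockdown were 3.97% and 2.78%, and the calls below were also made without both replicate 1 libraries of that time. The targeted element was low in the knockdown at all times. Levels are given as CPM, counts per 1000000 counts of a library whose size was scaled by the trimmed mean of M values. At 8 hpf BHIKHARI_LTR lay at 2807 to 2822 CPM in the controls against 677 to 751 in the knockdown. It lay at 98.9 to 104 against 34.8 to 36.2 CPM at 18 hpf. Markers of cell types changed with age. The summed level of 8 gastrula genes went from 1647 to 1924 CPM in 8 hpf controls to 293 in both 18 hpf controls, and that of 4 germ cell genes from 52.9 to 58.5 CPM to 11.4 to 12.1. Summed levels went up from 8 to 18 hpf for 4 somite and muscle genes (13.9 to 23.3, then 225 to 269 CPM), 3 neural genes (183 to 205, then 357 to 369) and 4 epidermal genes (7142 to 8061, then 14703 to 18438). They also went up for 4 blood and vessel genes (2.04 to 3.93, then 128 to 162 CPM), 4 genes of the yolk syncytial layer (450 to 557, then 992 to 1041) and 2 hatching gland genes (1.53 to 5.57, then 79.6 to 84). Between these times the hatching gland sum was higher, at 181 to 205 CPM in the 14 hpf controls. The yolk syncytial layer sum was already at 988 to 1615 CPM in the 11 hpf controls. In the edgeR test used below, 2 of the 4 somite and muscle genes were called higher from 8 to 18 hpf in the controls. The gene mespaa of that list was called lower (log2 -0.99, SE 0.38, adjusted p = 0.034). Called were also 2 of the 3 neural genes (higher) and 2 of the 4 germ cell genes (lower). Of the 4 genes of the yolk syncytial layer, 2 were tested and 1 was called higher. All genes of the remaining lists were called in the direction of their sum. The marker genes myog, ttr and gata1a had 0 counts in the 8 hpf controls.

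The families differed widely in abundance. Averaged over the 16 libraries their level ran from 0.815 to 299 CPM with a median of 9.66, where CPM is scaled by the trimmed mean of M values. A level counts all copies of a family together and is not divided by length, so levels are compared between libraries and not between families. In 36 families the mean was under 5 CPM and in 8 over 50 CPM, and 55 reached 10 counts in every library. Of all counts in the 85 families, 28.4% fell in Ngaro, 26.9% in Pao, 26% in DIRS, 17.1% in the LTR rows without a superfamily and 1.55% in Copia. The 5 most counted families, DIRS-1-LTR_DR, LTR-11_DR-LTR, DIRS1_DR, BEL3-I_DR and DIRS-8_DR, held 43.5%.

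Summed over their families, Pao and DIRS rows were lower late than early. In the controls, the mean sums of Ngaro rows and of rows without a superfamily were lowest at 11 hpf. At 18 hpf they were near their 8 hpf level again. Pao rows summed to 642 and 618 CPM in the 8 hpf controls (replicates 1 and 2 here and below) and to 421 and 404 (18 hpf). DIRS rows went from 649 and 687 CPM to 466 and 444. Ngaro rows stood at 643 and 601 CPM (8 hpf), 529 and 507 (11 hpf), 565 and 500 (14 hpf) and 583 and 658 (18 hpf), with overlap of 11 and 14 hpf. The 18 hpf controls thus lay below both 8 hpf controls for Pao and DIRS, and the Ngaro sums of these times overlapped. Copia rows summed to 45.8 and 34.3 CPM in the 8 hpf controls and 22.4 and 27.1 (18 hpf), whereas in the knockdown they summed to 29.1 and 24.5 CPM, then 34.5 and 30.2. These sums are descriptions and were not tested. In bulk RNA, fewer cells of a type and less RNA per cell cannot be told apart.

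**Figure D1:**
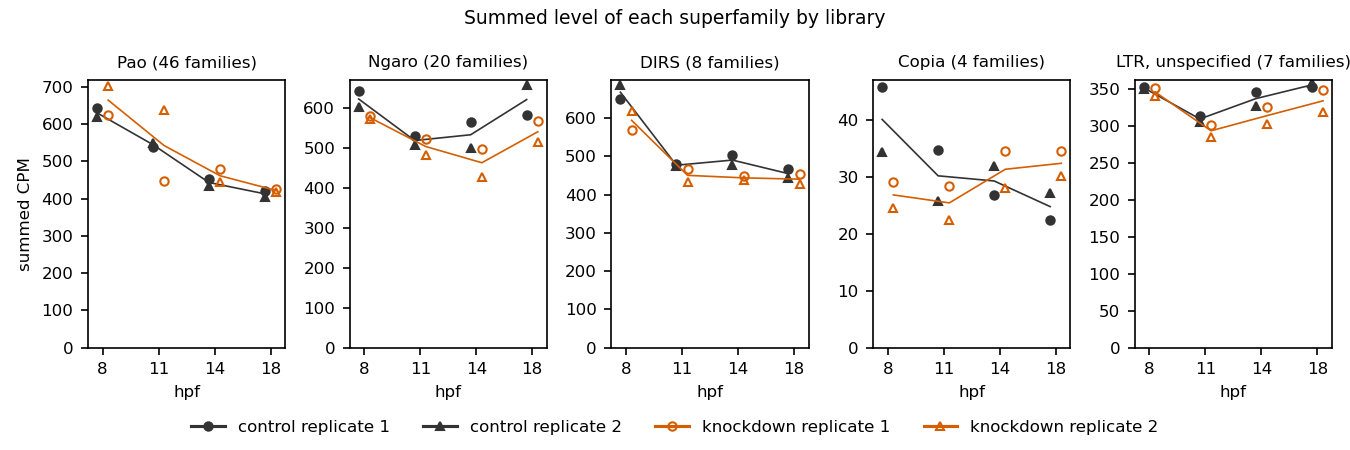
Summed CPM (vertical axis) of the member families of each superfamily against hours post fertilization (horizontal axis), 1 point per library, with lines through the group means of control (filled) and knockdown (open). Pao sums go from 642 and 618 CPM to 421 and 404 in the controls, and Copia sums are lower in both 8 hpf knockdown libraries than in either control.

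Developmental change in the controls was tested first. Between 8 and 18 hpf, edgeR's quasi-likelihood test called 29 of the 85 families at a Benjamini-Hochberg adjusted p under 0.05, 11 higher and 18 lower. Over all 17756 genes and families tested the same comparison called 60%, with 33.7% higher and 26.4% lower. That is 34.1% of the families, a share whose difference from all features was not tested. Of all 862 repeat families 35% were called, and of 219 Gypsy families 32.9%. The median log2 fold change of the 85 families was -0.25, against 0.10 over all features. The knockdown embryos, which are separate libraries, had 33 of the 85 families called over the same span, 8 higher and 25 lower. The shares called were 57.9% of all features (33% higher, 24.9% lower) and 34.1% of all repeat families. In both treatments 22 of the 85 families were called, all in the same direction, 7 up and 15 down. That is 75.9% of those called in the controls and 66.7% of those called in the knockdown. None of the 40 families called in either treatment had opposite signs in the 2 treatments. The same overlap was not computed over all features, so whether it is particular to these families is not known.

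**Figure D2:**
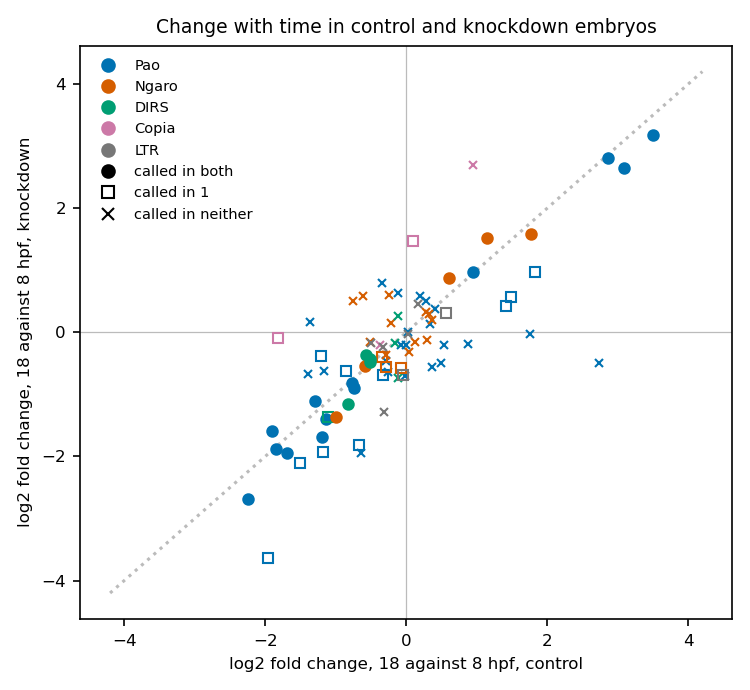
Log2 fold change from 8 to 18 hpf in the knockdown (vertical axis) against that in the controls (horizontal axis) for all 85 families, coloured by superfamily, with filled circles for the 22 called in both, squares for those called in 1 treatment and crosses for the rest; the dotted line marks equal change. All 22 circles lie below 0 on both axes or above 0 on both, and the BEL22-LTR_DR circle at the upper right rests on 2 counts in each 8 hpf group.

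All 8 DIRS families had a log2 fold change below 0 between 8 and 18 hpf in the controls, as had 8372 of all 17756 features. Of the 8, 4 were called lower, against 26.4% of all features. In the knockdown 7 of the 8 were below 0 and 1 above, and 5 were called lower, against 24.9% of all features. DIRS-1-LTR_DR, the terminal repeat row of DIRS-1, lay at 361 and 404 CPM in the 8 hpf controls, with 294 and 290 (11 hpf), 317 and 291 (14 hpf) and 264 and 253 (18 hpf). In the knockdown it lay at 320 and 363 CPM (8 hpf), 292 and 259 (11 hpf), 274 and 276 (14 hpf) and 275 and 256 (18 hpf). Both 8 hpf libraries of each treatment were above all its later ones, and the drop came by 11 hpf. The controls fell by 0.39 on the log2 scale from 8 to 11 hpf (SE 0.11, adjusted p = 0.011) and by 0.57 from 8 to 18 hpf (SE 0.11, adjusted p = 0.00027).

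DIRS1_DR had 176 and 174 CPM in the 8 hpf controls, with 116 and 109 (11 hpf), 101 and 115 (14 hpf) and 131 and 116 (18 hpf). The knockdown had 137 and 148 CPM, then 112 and 94, 92 and 86.3, and 110 and 102 at the same times. The highest values of either treatment were again at 8 hpf, with no overlap with later times. From 8 to 11 hpf the controls fell by 0.64 (SE 0.12, adjusted p = 0.0009), and from 8 to 18 hpf by 0.51 (SE 0.12, adjusted p = 0.0019). DIRS1a_DR fell with it, from 54.9 and 49 CPM (8 hpf) to 36.4 and 29.2 (11 hpf) and 36.9 and 36.1 (18 hpf), with a change of -0.51 on the log2 scale over the whole span (SE 0.17, adjusted p = 0.017). DIRS-1_DR, the body of the element whose LTR row is above, fell by 0.82 in the controls (SE 0.25, adjusted p = 0.0089) and by 1.16 in the knockdown (SE 0.25, adjusted p = 0.00085).

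Ngaro families moved both ways. Ngaro1_DR, the 1 Ngaro row not named DIRS, had 6.71 and 6.12 CPM in the 8 hpf controls, with 6.36 and 5.68 (11 hpf), 11.8 and 11.3 (14 hpf) and 20.2 and 23.6 (18 hpf). Its knockdown libraries had 7.05 and 5.03 CPM, then 4.38 and 3.91, 6.03 and 9.87, and 20.2 and 15.8. From 8 to 11 hpf the control libraries overlapped, while both knockdown libraries of 11 hpf lay below both of 8 hpf. The level was highest at 18 hpf, where no library overlapped an earlier one of its treatment. It was 3.41-fold higher at 18 than at 8 hpf in the controls (log2 1.77, SE 0.29, adjusted p = 7.3e-05) and 2.99-fold higher in the knockdown (log2 1.58, SE 0.29, adjusted p = 0.00024). From 14 to 18 hpf alone the controls also rose (log2 0.93, SE 0.28, adjusted p = 0.038).

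DIRS-4_DR had 18.8 and 16.5 CPM in the 8 hpf controls, with 14.5 and 17 (11 hpf), 24.4 and 20.4 (14 hpf) and 39.6 and 38.9 (18 hpf). The knockdown had 13.7 and 13.5 CPM, then 20.3 and 21.2, 20.5 and 20.6, and 42.7 and 35. The 4 libraries of 18 hpf were above every earlier one. The rise from 8 to 18 hpf was 2.22-fold in the controls (log2 1.15, SE 0.18, adjusted p = 6e-05) and 2.86-fold in the knockdown (log2 1.52, SE 0.19, adjusted p = 4.3e-06). DIRS-8B_DR rose with it, 1.52-fold in the controls (log2 0.60, SE 0.15, adjusted p = 0.0022) and 1.83-fold in the knockdown (log2 0.87, SE 0.15, adjusted p = 0.0001).

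DIRS-4N1_DR went the other way although it shares the DIRS-4 stem in its name. Its controls had 37 and 43 CPM (8 hpf), 24.2 and 24.3 (11 hpf), 23 and 23.1 (14 hpf) and 19.8 and 20.1 (18 hpf). The knockdown had 44.7 and 47.9 CPM, then 27.4 and 27.3, 23.7 and 19.4, and 16.9 and 18.9. Replicates were close, and the 8 hpf libraries were above all later ones. The fall was 2-fold in the controls (SE 0.17 on the log2 scale, adjusted p = 9.9e-05) and 2.59-fold in the knockdown (log2 -1.37, SE 0.17, adjusted p = 4.2e-06). DIRS-N3_DR also fell in both treatments, by 0.59 (SE 0.19, adjusted p = 0.016) and 0.54 (SE 0.19, adjusted p = 0.026). The 3 most counted Ngaro families were not called in the controls: DIRS-8_DR changed by a log2 of -0.29 (SE 0.21, adjusted p = 0.25), DIRS-6_DR by -0.08 (SE 0.21, adjusted p = 0.77) and DIRS-1C-LTR_DR by -0.34 (SE 0.17, adjusted p = 0.086). In the knockdown, DIRS-6_DR (log2 -0.57, SE 0.21, adjusted p = 0.028) and DIRS-1C-LTR_DR (log2 -0.40, SE 0.17, adjusted p = 0.047) were past the threshold. These knockdown calls were lost in 5 of 22 alternatives for DIRS-6_DR and in 13 of 22 for DIRS-1C-LTR_DR. The test of a changing knockdown effect gave unadjusted p-values of 0.28 and 0.46. A difference between the treatments in the fall was therefore not shown.

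Of the 85 families, Pao elements held the largest fitted fall and rise of the controls. In the controls 18 of 46 (39.1%) were called between 8 and 18 hpf, 7 higher and 11 lower, against 60% of all features. Among them were 15 of the 28 internal parts (53.6%) and 3 of the 18 LTR parts (16.7%). The median SE was 0.45 for the internal parts and 0.69 for the LTR parts, and a difference between the parts was not tested. BEL36-I_DR, an internal part, had 113 and 131 CPM in the 8 hpf controls, with 94.3 and 79.5 (11 hpf), 48.2 and 40.2 (14 hpf) and 34.7 and 30.8 (18 hpf). The knockdown had 85.9 and 92.7 CPM, then 57 and 88.1, 58.8 and 44.7, and 29.2 and 30. Control libraries of successive times did not overlap, and each time was lower than the one before. The whole span was a 3.73-fold fall in the controls (log2 -1.90, SE 0.20, adjusted p = 6.3e-07) and a 3.02-fold fall in the knockdown (log2 -1.59, SE 0.20, adjusted p = 4.1e-06). It was the single family called from 11 to 14 hpf in the controls (log2 -0.98, SE 0.19, adjusted p = 0.01), a step that called 2.64% of all features, 0.681% lower. That call was lost without control replicate 1 at 11 hpf and without control replicate 2 at 14 hpf, either of which left 0 families called.

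BEL24-I_DR had 36.5 and 39.3 CPM in the 8 hpf controls, with 16.5 and 20.2 (11 hpf), 13.1 and 16.7 (14 hpf) and 9.23 and 11.6 (18 hpf). In the knockdown the values were 32.4 and 59.9 CPM, then 15.7 and 25.7, 12.3 and 13.7, and 13.8 and 11.1. The 8 hpf libraries were above all later ones in both treatments. It fell 3.6-fold in the controls (log2 -1.85, SE 0.30, adjusted p = 6e-05) and 3.69-fold in the knockdown (log2 -1.88, SE 0.29, adjusted p = 4e-05). BEL23-I_DR fell from 13.4 and 15 CPM (8 hpf) to 5.28 and 6.14 (18 hpf) in the controls (log2 -1.30, SE 0.37, adjusted p = 0.0065), and also fell in the knockdown (log2 SE 0.37, adjusted p = 0.017).

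BEL15-I_DR had the largest fitted fall of the controls at a low level: 6.22 and 6.63 CPM (8 hpf), 4.24 and 2.05 (11 hpf), 1.15 and 2.43 (14 hpf) and 0.879 and 1.67 (18 hpf). Its log2 fold change was -2.25 (SE 0.57, adjusted p = 0.0029) in the controls and -2.68 (SE 0.59, adjusted p = 0.00096) in the knockdown. BEL25-I_DR went from 9.82 and 11.2 CPM to 3.3 and 3.21 over the span in the controls (log2 -1.69, SE 0.56, adjusted p = 0.016) and from 10.5 and 18.8 to 2.04 and 5.74 in the knockdown (log2 -1.95, SE 0.54, adjusted p = 0.0059). BEL3-I_DR and BEL27-I_DR fell by less. BEL3-I_DR went from 109 and 111 CPM to 69.5 and 62.8 in the controls (log2 -0.74, SE 0.18, adjusted p = 0.0023), and BEL27-I_DR from 61.2 and 54.6 CPM to 31.4 and 36.3 (log2 -0.77, SE 0.18, adjusted p = 0.0015).

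BEL4-I_DR and BEL22-I_DR rose from near absence. BEL4-I_DR had 0.655 and 0.68 CPM in the 8 hpf controls, which is 4 counts in each library, then 3.26 and 2.37 (11 hpf), 4.59 and 5.78 (14 hpf) and 5.06 and 6.55 (18 hpf). In the knockdown it had 1.08 and 1.3 CPM, then 5.36 and 3.43, 3.02 and 3.46, and 6.98 and 8.15. Every later library of either treatment was above every 8 hpf library. The rise from 8 to 18 hpf was 8.54-fold in the controls (log2 3.09, SE 0.48, adjusted p = 4.6e-05) and 6.23-fold in the knockdown (log2 2.64, SE 0.44, adjusted p = 8.2e-05).

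BEL22-I_DR had 0.655 and 1.36 CPM in the 8 hpf controls, with 3.1 and 3.15 (11 hpf), 3.94 and 5.63 (14 hpf) and 7.91 and 6.97 (18 hpf). The knockdown had 1.08 and 1.3 CPM, then 4.71 and 4.4, 6.68 and 7.62, and 7.71 and 9.27. In each treatment every time lay above the one before without overlap. The rise was 7.27-fold in the controls (log2 2.86, SE 0.43, adjusted p = 3.3e-05) and 6.98-fold in the knockdown (log2 2.80, SE 0.42, adjusted p = 3e-05). The LTR part of the same element, BEL22-LTR_DR, was called higher in both treatments as well. It had 2 and 0 counts in the 8 hpf controls and 8 and 17 (18 hpf), with 0 and 2 and then 12 and 9 counts in the knockdown, so that no fold is given.

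BEL13-I_DR, BEL31-I_DR and BEL-38-I_DR rose by less in the controls and were not called in the knockdown. BEL13-I_DR went from 1.47 and 0.85 CPM to 4.62 and 3.77 in the controls (log2 1.82, SE 0.60, adjusted p = 0.016), with a log2 of 0.97 in the knockdown (SE 0.60, adjusted p = 0.18). BEL31-I_DR went from 1.31 and 1.19 CPM to 3.96 and 3.21 (log2 1.49, SE 0.48, adjusted p = 0.014), with 0.57 in the knockdown (SE 0.43, adjusted p = 0.27). BEL-38-I_DR went from 6.55 and 4.76 CPM to 13.6 and 16.3 (log2 1.41, SE 0.35, adjusted p = 0.0027), with 0.42 in the knockdown (SE 0.33, adjusted p = 0.28). For these 3 families the change of the knockdown effect over time had adjusted p-values of 1, so a difference between the treatments in the rise was not shown.

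**Figure D3:**
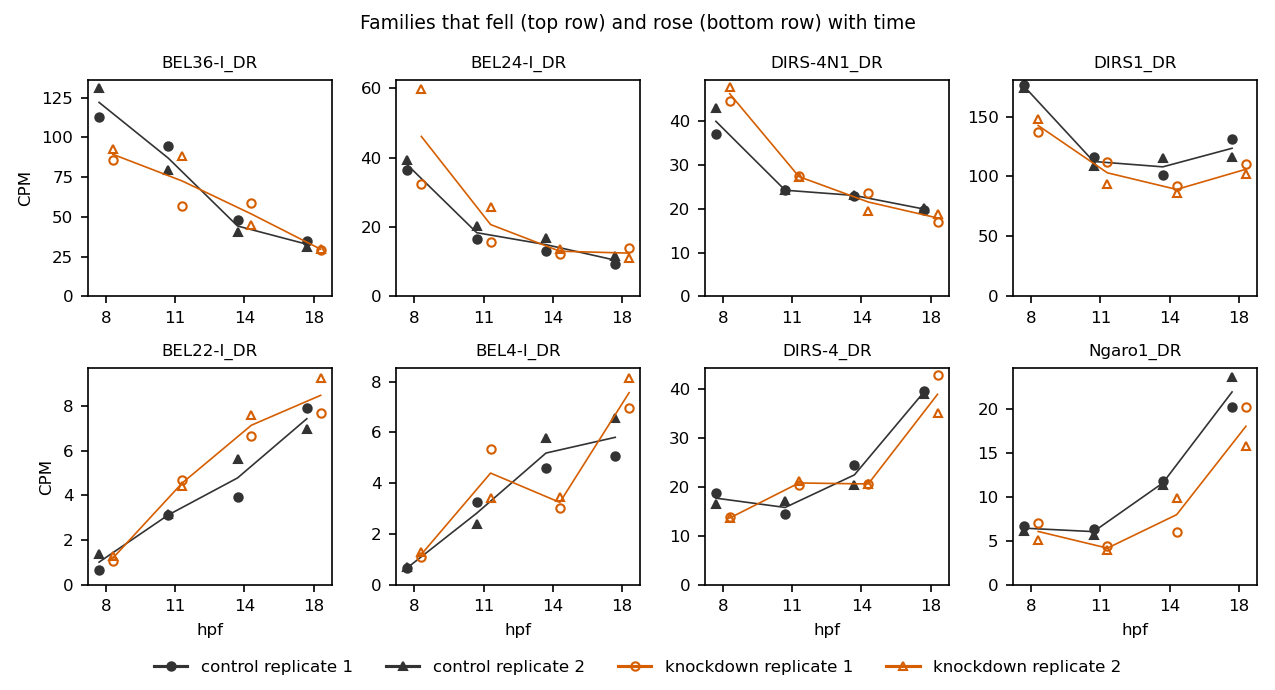
CPM (vertical axes, each from 0) against hours post fertilization for 4 families that fell and 4 that rose between 8 and 18 hpf in the controls, 1 point per library, with lines through group means. BEL36-I_DR goes from 113 and 131 CPM down to 34.7 and 30.8 in the controls, while DIRS-4_DR and Ngaro1_DR go up mainly after 14 hpf.

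Among Copia elements, Copia3-I_DR was the 1 family called in the controls. It had 23.1 and 17 CPM (8 hpf), 14.2 and 6.46 (11 hpf), 8.86 and 12.8 (14 hpf) and 6.6 and 4.88 (18 hpf). Knockdown libraries had 14.1 and 8.61 CPM, then 11.4 and 3.18, 14.4 and 10.9, and 10.3 and 10.9. The controls fell while the knockdown values at 18 hpf lay between those at 8 hpf. The control fall was a log2 of -1.82 (SE 0.50, adjusted p = 0.006), the knockdown had -0.09 (SE 0.48, adjusted p = 0.88), and the test of a changing knockdown effect gave an unadjusted p of 0.1 and an adjusted p of 1. Copia4-I_DR had 17.4 and 13.3 CPM in the 8 hpf controls and 11.9 in both 18 hpf controls, and was not called (log2 -0.37, SE 0.42, adjusted p = 0.47).

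LTR-11_DR-LTR, an abundant row without a superfamily, changed little. Its controls had 253 and 256 CPM (8 hpf), 232 and 234 (11 hpf), 260 and 249 (14 hpf) and 260 and 256 (18 hpf), and the 8 knockdown libraries lay between 211 and 257 CPM. The control change from 8 to 18 hpf was a log2 of 0.02 (SE 0.09, adjusted p = 0.89). LTR-6_DR rose in the controls, from 22.9 and 24.3 CPM (8 hpf) and 17 and 16.7 (11 hpf) to 31.7 and 37.7 (18 hpf) (log2 0.56 over the span, SE 0.20, adjusted p = 0.025). LTR5_DR stood at 32.6 and 30.8 CPM and then 33 and 28.3 in the controls (log2 -0.05, SE 0.23, adjusted p = 0.86), and fell from 30.4 and 30.7 to 22.2 and 15.6 in the knockdown (log2 -0.68, SE 0.24, adjusted p = 0.023). The knockdown call of LTR5_DR was lost in 4 of 22 alternatives. Its test of a changing knockdown effect gave an unadjusted p of 0.25, so a difference between the treatments was not shown.

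By step in the controls, 9 families were called from 8 to 11 hpf (10.6%, against 30.4% of all features and 12.5% of repeat families). Of these 9, 2 were higher and 7 lower (18.4% and 12% of all features). The 7 that fell were DIRS1_DR, DIRS1a_DR, DIRS-1-LTR_DR, DIRS-4N1_DR, DIRS-4N2-LTR_DR, BEL23-I_DR and BEL24-I_DR, and the 2 that rose were BEL4-I_DR and BEL22-I_DR. From 14 to 18 hpf 4 were called, all higher (4.71%, against 11.6% of all features, 7.76% higher, and 4.18% of repeat families): DIRS-4_DR, DIRS-8B_DR, Ngaro1_DR and LTR-6_DR. The last counts were sensitive to single libraries: without control replicate 2 at 14 hpf or at 18 hpf, 0 were called, and 2 were called without replicate 1 of the controls at 14 hpf or at 18 hpf or without either 18 hpf knockdown library. Without control replicate 1 at 11 hpf, 3 of the 9 were called from 8 to 11 hpf. Without either knockdown library of 11 hpf, the 7 lower from 8 to 11 hpf became 11. Over the whole span the 11 higher in the controls became 6 without control replicate 2 at 8 hpf. The knockdown count of 33 became 18 without replicate 2 of the knockdown at 8 hpf or at 18 hpf, where the 25 lower became 12 and 11. Without both replicate 1 libraries of 8 hpf, the whole span called 27 families in the controls, 24 of them among the 29, and 24 in the knockdown.

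The internal part and the LTR of the same element could be compared for 20 elements. In DIRS-1 and DIRS-4N2 the row beside the LTR is marked neither I nor int, and it was taken as the internal part. Internal counts were above LTR counts in 17, from 1.65 times (BEL31) to 37.8 times (BEL3), and below them in BEL30, DIRS-1 and DIRS-1D, where the ratio was 0.672, 0.0841 and 0.059. These ratios are not divided by length. In 15 of the 20 the log2 fold changes of the control from 8 to 18 hpf had the same sign, as in BEL36 (internal -1.90, LTR -0.85) and BEL22, and in 5 they did not, as in BEL31 (internal 1.49, LTR -0.35).

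The question asked of the knockdown was whether these families changed when BHIKHARI RNA was lowered. At single times edgeR called 0 of the 85 families. At 8 hpf (0.344% of all features called) 9 had an unadjusted p under 0.05, against 9.19% of all features, at 11 hpf (0.00563% called) 6, against 4.64%, at 14 hpf (0.00563% called) 6, against 5.58%, and at 18 hpf (0.0113% called) 4, against 4.5%. DESeq2 also called 0 at each time, although it gave no adjusted p for 19 families at 8 hpf, for 50 at 11 hpf and for 5 at 14 hpf. The summed neural markers were lower in both 8 hpf knockdown libraries (106 to 136 CPM) than in the controls (183 to 205). Of 32 pairs of a marker list and a time, 8 had summed levels without overlap of the treatments, 5 higher and 3 lower in the knockdown. With so few libraries per group such separation is frequent by chance alone, and the share expected by chance was not computed. The separations given here are therefore descriptions, and an effect of the knockdown on these sums was not shown. At 14 hpf the knockdown was lower for somite and muscle genes (91.8 to 109 against 122 to 129 CPM) and for blood and vessel genes (57.5 to 61.4 against 74 to 74.7), and higher for hatching gland genes (209 to 236 against 181 to 205). At 18 hpf it was higher for the yolk syncytial layer (1390 to 1655 against 992 to 1041 CPM), hatching gland (105 to 136 against 79.6 to 84), neural (392 to 426 against 357 to 369) and gastrula genes (310 to 312 against 293). No tested marker gene was called by edgeR at a single time, and the part of these separations in the families' values was not tested.

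Averaged over the 4 times, 1 family was called, against 1.63% of all features (0.332% higher, 1.3% lower), and 12 had an unadjusted p under 0.05, 4 higher and 8 lower, against 15.4% of all features (7.3% higher, 8.14% lower). The median effect over the 85 families was -0.02 on the log2 scale, against 0.01 over all features, and their effects ran from -0.82 to 0.71. Pao lay slightly above 0, with a median of 0.10 and 29 of 46 effects positive, made up of 21 of 28 internal parts and 8 of 18 LTR parts. Ngaro lay below, with 16 of 20 effects negative and a median of -0.12. Over all features 9176 of 17756 effects were positive. Among all 862 repeat families 531 effects were negative, with a median of -0.04. Negative effects were also found in 131 of 219 Gypsy families (median -0.09) and 30 of 38 ERV families (median -0.14). The test of whether the knockdown effect changed over time called 0 families and 0% of all features, with DESeq2 also at 0. In that test 1 family, BEL31-LTR_DR, had an unadjusted p under 0.05 (0.025), against 2.64% of all features.

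**Figure D4:**
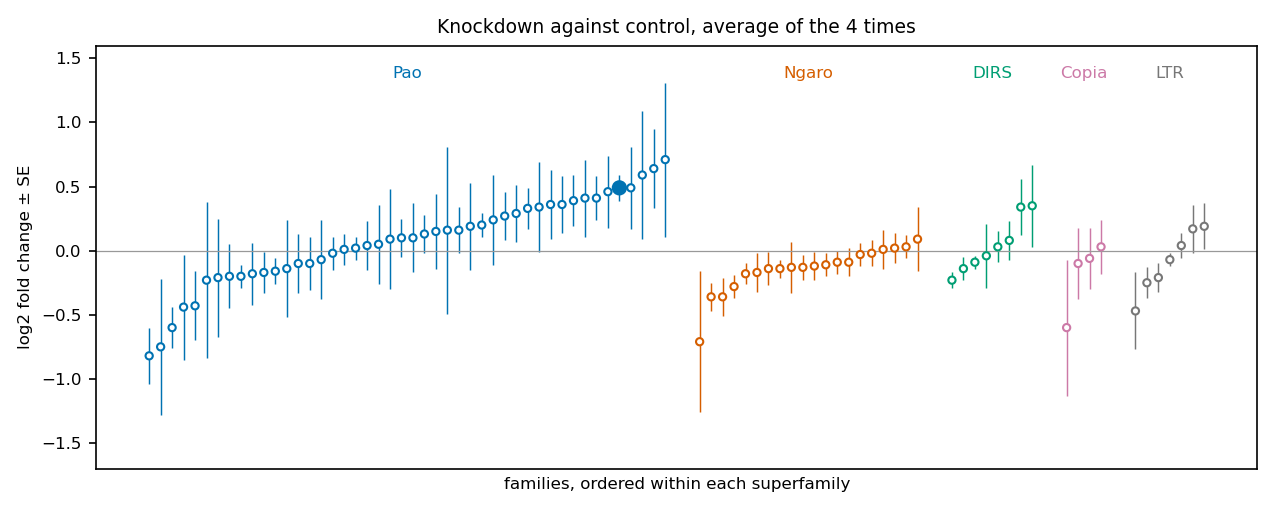
Log2 fold change of knockdown against control averaged over the 4 times (vertical axis), with its SE as a bar, for all 85 families ordered within their superfamily (horizontal axis). The filled point is CATCH2I_DR at 0.49, and open points were not called; 21 of the 28 Pao internal parts and 4 of the 20 Ngaro families lie above 0.

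The family called was CATCH2I_DR, the internal part of the Pao element CATCH2. It had 25.5 and 23.8 CPM in the controls and 32.5 and 34.6 in the knockdown at 8 hpf, and 26.3 and 30.9 against 31.5 and 52.2 (11 hpf). At 14 hpf the controls had 27.9 and 25.1 CPM and the knockdown 42.2 and 36, and at 18 hpf they had 32.5 and 33.2 against 45.8 and 41.1. Both knockdown libraries were above both controls at all 4 times, narrowly at 11 hpf, where knockdown replicate 2 was the highest of all 16. The average was 1.41-fold higher (log2 0.49, SE 0.10, adjusted p = 0.021), and single times gave a log2 of 0.44 (SE 0.21), 0.56 (SE 0.20), 0.56 (SE 0.21) and 0.40 (SE 0.20). The call was lost, with a log2 of 0.46 to 0.49 and an adjusted p of 0.057 to 0.069, without any 1 of control replicate 2 or knockdown replicate 1 at 14 hpf, either control at 18 hpf, or knockdown replicate 1 at 18 hpf. It was also lost without both replicate 1 libraries of 8 hpf (log2 0.51, adjusted p = 0.07).

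CATCH2LTR_DR, the LTR of the same element, was not called in the average knockdown effect. It had 12.8 and 9.01 CPM in controls and 12.7 and 10.1 in the knockdown at 8 hpf, 18.6 and 9.46 against 19.1 and 13.5 (11 hpf), 12.3 and 13.1 against 12.9 and 13.5 (14 hpf), and 22.4 and 19.9 against 24.6 and 19.8 (18 hpf). The knockdown mean was the higher at all 4 times, but the libraries of the treatments overlapped at each. The average effect was a log2 of 0.10 (SE 0.15, adjusted p = 0.8). With time CATCH2LTR_DR rose in both treatments, 1.94-fold in the controls (log2 0.95, SE 0.30, adjusted p = 0.012) and 1.96-fold in the knockdown (log2 0.97, SE 0.30, adjusted p = 0.011). CATCH2I_DR was not called over that span in the controls (log2 0.41, SE 0.21, adjusted p = 0.097). Whether the effects on the internal and the LTR row differ was not tested. Over the 16 libraries the features whose log2 CPM was most correlated with CATCH2I_DR were appl2 (Pearson's r 0.87), zgc:171971 (0.83), BNIP1 (0.81), sprtn (0.81) and PIGU (0.79), all values from libraries that share the same times and treatments.

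**Figure D5:**
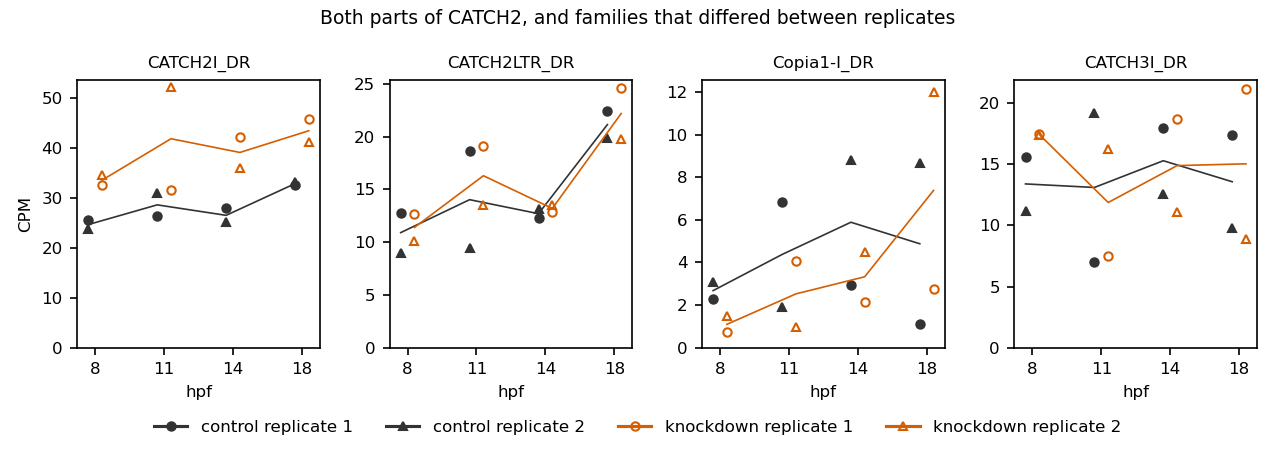
CPM (vertical axes, each from 0) against hours post fertilization for both parts of CATCH2 and for Copia1-I_DR and CATCH3I_DR, 1 point per library, with lines through group means. Both knockdown points of CATCH2I_DR lie above both controls at each time, and those of CATCH2LTR_DR do not. Replicates 1 and 2 of Copia1-I_DR and CATCH3I_DR stand far apart at 11 and 18 hpf.

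The 4 families with the next lowest p-values were all lower in the knockdown. None passed the threshold in the filtered edgeR fit of all 16 libraries without a replicate block. With no filter beyond 1 count, edgeR called BEL27-LTR_DR (adjusted p = 0.02) and DIRS-8_DR (adjusted p = 0.0011), and DESeq2 called BEL27-LTR_DR (adjusted p = 0.044). BEL27-LTR_DR had 9.66 and 11.6 CPM in controls against 7.59 and 9.1 in the knockdown at 8 hpf, 17.5 and 13.4 against 9.57 and 7.83 (11 hpf), 11.2 and 10.2 against 4.31 and 7.97 (14 hpf), and 10.8 and 9.34 against 6.11 and 8.52 (18 hpf). Both knockdown libraries were below both controls at every time, and the average was a log2 of -0.60 (SE 0.16, adjusted p = 0.067). The internal part, BEL27-I_DR, had -0.20 (SE 0.09, adjusted p = 0.28). BEL34-LTR_DR had 4.91 and 4.59 CPM against 2.17 and 3.57 (8 hpf), 5.06 and 3.47 against 1.62 and 2.45 (11 hpf), 3.45 and 3.8 against 2.37 and 2.25 (14 hpf), and 2.64 and 3.07 against 1.6 and 1.48 (18 hpf). It too was lower in both knockdown libraries at every time (log2 -0.82, SE 0.22, adjusted p = 0.076), while its internal part BEL34-I_DR had 0.01 (SE 0.12, adjusted p = 1).

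DIRS1_DR, whose values are given above, was lower in both knockdown libraries than in both controls at 3 of the 4 times, with an average log2 of -0.23 (SE 0.06, adjusted p = 0.074). DIRS-8_DR, a Ngaro family, had 111 and 115 CPM against 86.2 and 84 (8 hpf), 73.8 and 95.1 against 69.1 and 80 (11 hpf), 103 and 72 against 76.5 and 57.7 (14 hpf), and 76.3 and 108 against 76.2 and 56.1 (18 hpf). The groups were apart at 8 hpf and, by a narrow margin, at 18 hpf, and the average was -0.36 (SE 0.11, adjusted p = 0.11). Of the 85 families, 1 was higher without overlap at all 4 times (CATCH2I_DR) and 3 were lower (BEL27-LTR_DR, BEL34-LTR_DR and DIRS-N1_DR), against 0.524% and 1.27% of all features.

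In 5 families the replicates of a group differed by over 3-fold where the group mean reached 5 CPM. In the 11 hpf knockdown, replicates 1 and 2 had 3.08 and 12.6 CPM of BEL11-I_DR, 3.25 and 10.6 of BEL25-I_DR and 11.4 and 3.18 of Copia3-I_DR. In the 18 hpf knockdown they had 17.9 and 5 CPM of Copia4-I_DR and 2.76 and 12 of Copia1-I_DR. None of the 5 was called in any comparison of knockdown with control, and BEL25-I_DR and Copia3-I_DR, called with time, had SEs of 0.56 and 0.50 in the controls.

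Host genes that silence or restrict retrotransposons were measured in the same fit, from a list of 53, of which 36 matched a symbol and 34 were tested. The piRNA pathway, DNA methylation and methylation of histone H3 at lysine 9 are the main arms of such silencing. In the average knockdown effect 0 of the 34 were higher and 1 was lower: atf7ip, a cofactor of the histone methyltransferase SETDB1, by a log2 of 0.30 (SE 0.06, adjusted p = 0.026). At 8 hpf atf7ip had a log2 of -0.65 (SE 0.13, adjusted p = 0.038), and 0 other genes of the list were called at any time. The list's median average effect was 0.04. Between 8 and 18 hpf in the controls 4 rose and 16 fell, with a median of -0.28, where 33.7% of all features rose and 26.4% fell. The maintenance methyltransferase gene dnmt1 rose (log2 1.07, SE 0.13, adjusted p = 3.3e-06), while dnmt3bb.2, a de novo methyltransferase gene (log2 -1.59, SE 0.13, adjusted p = 4.9e-08), ddx4, which encodes the germ cell helicase Vasa (log2 -3.12, SE 0.33, adjusted p = 7.8e-07), and adar, an RNA editing enzyme gene (log2 -1.24, SE 0.18, adjusted p = 2.7e-05), fell. Levels of these genes and of the markers given above moved with the same developmental times as the families, and their part in the families' changes was not tested. Of the cell type markers, 1 was called in the average knockdown effect, the epidermal gene tp63 (log2 -0.37, SE 0.09, adjusted p = 0.04).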

How the data were processed

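The authors deposited whole-number read counts per gene and per repeat family for 16 libraries. STAR and GRCz11 are named in the submitters' processing notes, and the labels' protocols name poly(A) enrichment and a directional kit. The counting program, its strand setting and its treatment of reads that match several copies were not given in the sources used here. edgeR 4.0.16 in R 4.3.3 fitted all libraries at once with scaling by the trimmed mean of M values (TMM), filterByExpr and a robust quasi-likelihood, with 1 mean for each of 8 groups. The fit covered 16894 genes and 862 families, including all 85 described, with 8 residual degrees of freedom and a biological coefficient of variation of 0.177. p-values were adjusted over all 17756 features by the Benjamini-Hochberg method, and the SE of a log2 fold change is its size over the root of its F statistic. The script was tested on simulated counts. Families named were those called in the knockdown, the 5 with the lowest p, the 3 most counted per superfamily, the largest changes with time and those with unlike replicates; BEL31-LTR_DR, DIRS-N1_DR, DIRS-4_DR, DIRS-4N1_DR and others beyond these were chosen after their values were seen. The families, gene lists and tests were chosen with earlier results of these data known. Alternatives were RLE scaling, scaling from genes, no filter, DESeq2 1.42.0, a replicate block, single times and each library left out.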

Additional observations from a re-analysis of the deposited data

How the results depend on the processing

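Of 1787 values for 81 results on single families under the alternatives, 1573 kept their direction and call, 204 lost the call, 10 gained one and 0 reversed. The 81 were the calls of the main fit and the uncalled averaged knockdown effects of BEL27-LTR_DR, BEL34-LTR_DR, DIRS1_DR and DIRS-8_DR. Only these uncalled effects could gain a call, and calls gained by other families are not among the 10. The control call from 14 to 18 hpf was lost in 18 of 22 alternatives for LTR-6_DR and in 6 for Ngaro1_DR. For DIRS-4_DR and DIRS-8B_DR it was lost in 2 each. From 8 to 11 hpf the control call of DIRS-4N2-LTR_DR was lost in 13 of 22. The averaged knockdown effect, with 1 family called, had 3 called with no filter beyond 1 count, 2 with DESeq2 (CATCH2I_DR and BEL27-LTR_DR), and 0 when averaged over 11, 14 and 18 hpf only (CATCH2I_DR 0.51, adjusted p = 0.087). It had 0 without both replicate 1 libraries of 8 hpf, an alternative chosen after seeing the data. Same-numbered control and knockdown libraries deviated together at 8, 11 and 14 hpf (r 0.32, 0.5 and 0.16) and less at 18 hpf (0.07). Not every pair was over 0.1, and the labels give these libraries the same replicate number but name no shared clutch or injection. The block is therefore an alternative, and whether these libraries share an origin is not known. With the replicate block, 1 family was called at 8 hpf (BEL-38-I_DR, log2 1.17) and 6 on average (CATCH2I_DR higher; BEL27-LTR_DR, BEL34-LTR_DR, DIRS-8_DR, DIRS-N1_DR and DIRS1_DR lower, with adjusted p of 0.0018 to 0.023). Without 1 library each, counts ran from 0 to 3 for the average, 3 to 13 for controls from 8 to 11 hpf, 0 to 1 from 11 to 14 hpf and 0 to 5 from 14 to 18 hpf. They ran from 22 to 32 for the controls and 18 to 33 for the knockdown from 8 to 18 hpf, and stayed at 0 for single-time knockdown effects and their change over time. The 3 on average came without knockdown replicate 1 at 11 hpf, and 2 without knockdown replicate 2 at 14 hpf. The causes were not tested. The 36 families under 5 CPM rest on few counts, and whether that limited their calls was not tested.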

Other observations

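The replicate difference of Copia1-I_DR went the same way in control and knockdown at every time. Its controls had 2.29 and 3.06 CPM (replicates 1 and 2, 8 hpf), 6.85 and 1.89 (11 hpf), 2.95 and 8.82 (14 hpf) and 1.1 and 8.65 (18 hpf). The knockdown had 0.723 and 1.46 CPM, 4.06 and 0.979, 2.15 and 4.5, and 2.76 and 12. Replicate 1 was thus the higher at 11 hpf and replicate 2 at the other times, in both treatments. It was the 1 family of the 85 whose replicates differed by over 1.5-fold in the same direction in both treatments at 3 or more times, against 0.456% of all features. For these folds 0.5 CPM was added to each value. Copia1-I_DR had a low mean of 4.02 CPM, and 0 of the 49 families with a mean of at least 5 CPM met this rule. CATCH3I_DR, chosen after its values were seen, had 7.02 and 19.2 CPM in controls and 7.46 and 16.3 in the knockdown at 11 hpf, then 17.4 and 9.76 against 21.2 and 8.89 (18 hpf). In 12 families (14.1%) the sign of the replicate difference was shared by the treatments at all 4 times, against 12.6% of all features. Whether same-numbered libraries share a clutch is not given in the labels.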
